A study of Homo sapiens with 12 samples.

Results

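The proteasome subunit genes described here are the 46 genes whose names are PSMA, PSMB, PSMC, PSMD, PSME, PSMF or PSMG followed by digits only, without PSMB8 and PSMB9. They were taken from 58302 genes in the RNA sequencing of 769-P and ACHN cells, of which 36305 were above 0 somewhere in the series. Another 37 genes whose names begin in the same way, pseudogenes, antisense RNAs and interacting proteins among them, were left out by that rule. The study asked how the knockdown of NUF2, a subunit of the NDC80 complex of the kinetochore, changes gene expression in clear cell renal cell carcinoma (ccRCC) cells. Both 769-P and ACHN are established human lines, which the labels call ccRCC cells, and the study grew them in different media. Each line was transfected for 48 h with siRNA-NUF2 (si-NUF2, described as siRNA2 and siRNA3 against NUF2) or with siRNA-control (si-NC), with 3 libraries in each of the 4 groups. No group was left untransfected, and no further allele or agent is named in the labels. The labels do not say whether replicates were separate cultures, so p-values measure the spread between these libraries, which may be technical.

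The proteasome degrades proteins that carry ubiquitin chains. Its 20S core is built from a pair of outer alpha rings and a pair of inner beta rings, the latter holding the catalytic sites, and the 19S cap unfolds the substrate with a ring of ATPases and removes its ubiquitin with a lid. Other members open the core (activators), help to build it (assembly chaperones), or replace constitutive chains in immune tissues and under interferon. Dividing cells depend on it to degrade cyclins and securin, and cells short of proteasome activity are known to raise many subunit genes together through the transcription factor NFE2L1.

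The depth of the libraries, in reads recovered from the steps between FPKM values, ran from 26367678 to 34581765 reads, and all 46 members had recovered reads. NUF2 was at 17.7 to 19.5 FPKM in the 769-P si-NC libraries and at 3.02 to 4.21 in the si-NUF2 libraries, a log2 fold change of -2.29 (limma with Benjamini-Hochberg adjustment, adjusted p 0.00129). The ACHN libraries had NUF2 at 11.4 to 14.97 with si-NC and at 2.19 to 5.14 with si-NUF2, without overlap, a log2 fold change of -1.87 (adjusted p 0.224, and 0.0122 with the replicate number as a block). The renal epithelial markers PAX8, PAX2 and LHX1 were each at 0.5 FPKM or more in every library. Of the clear cell markers CA9, NDUFA4L2, EGLN3 and ANGPTL4, only 1 in 769-P and 2 in ACHN cells reached that level in every library of the line. None of the 6 markers of immune or endothelial cells reached it in all libraries of either line, and CD3E was at 0 in all of them. PAX8 fell in 769-P cells with si-NUF2 (-0.44, adjusted p 0.036), and the keratins KRT8 and KRT18 were called higher with the block in both lines, KRT8 by 0.17 (769-P) and 0.62 (ACHN) and KRT18 by 0.26 and 0.60. Their part in the results on members was not tested. In bulk RNA, fewer cells of a type and less RNA per cell cannot be told apart.

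Values below are FPKM, fragments counted per length of exon and per size of library, which the authors deposited and which were then scaled within 769-P and within ACHN libraries by trimmed log ratios. Levels are therefore per length, and fold changes are differences on the log2(FPKM + 0.1) scale with their standard error (SE), which understates changes of low genes. Of the 46 members, 44 passed the filter of at least 0.5 FPKM in at least 3 of the 6 libraries in each line. The remaining members were the testis chain PSMA8, with 0 reads in 11 libraries and 3 reads in the remaining one, and the thymus chain PSMB11, with 0 to 2 reads. A gene at 3 reads or fewer could not be told from one that is not expressed at this depth.

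Knockdown of NUF2 left most proteasome genes close to their si-NC level in both lines, and the ATPase gene PSMC3 had the largest fold change in each. The median log2 fold change of the 44 tested members was 0.023 in 769-P cells, beside -0.009 over all 14155 genes tested, and 0.038 in ACHN cells, beside 0.006 over all 15116 genes tested. In 769-P cells the 95% interval lay within 0.5 of 0 on the log2 scale for 40 of the 44 members and for 48.7% of all genes. In ACHN cells it did so for 33 of the 44 members and for 33.4% of all genes.

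In 769-P cells 2 of the 44 members rose with si-NUF2 at an adjusted p under 0.05 (limma, Benjamini-Hochberg over all genes) and 0 fell, where 9.98% of all genes were called (5.26% higher and 4.71% lower). They were PSMC3 and PSME1. At an unadjusted p under 0.05 there were 8 members and 27.4% of all genes. The si-NUF2 libraries lay all above the si-NC libraries for 6 members (16.6% of all genes did) and all below for 2 (16.4% of all genes did). With the replicate number as a block, 8 members rose and 2 fell, where 27.5% of all genes were called (13.6% higher and 13.9% lower). The members that rose with the block were PSMA1, PSMC3, PSMC6, PSMD1, PSMD2, PSMD7, PSMD13 and PSME1, and those that fell were PSMG2 and PSMG3. The share of members called was thus below that of all genes with either fit. With the block the count of 10 became 2 without number 1 of both groups (2346 of 13580 genes called) or without number 2 (1691 of 13545). It was 8 without number 3 (3034 of 13560). A single fit of all 12 libraries called 1 member (4.23% of all genes), and limma-voom on recovered reads called 3 (13.3%) without and 10 (36.5%) with the block.

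In ACHN cells 0 of the 44 members and 0.0% of the 15116 genes passed without the block. At an unadjusted p under 0.05 there was 1 member, PSMC3, and 8.19% of all genes, and limma-voom on recovered reads also called 0 members without the block and 4 with it (23.2% of all genes). The single fit of all 12 libraries called 1 member (1.03% of all genes). The si-NUF2 libraries lay all above the si-NC libraries for 2 members (8.86% of all genes did) and all below for 0 (5.74% of all genes did). With the block 3 members rose (PSMC3, PSMD7 and PSMD13) and 1 fell (PSMB10), where 12.2% of all genes were called (7.14% higher and 5.05% lower). The plot of fold changes by role shows these members against the rest.

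**Figure D1:**
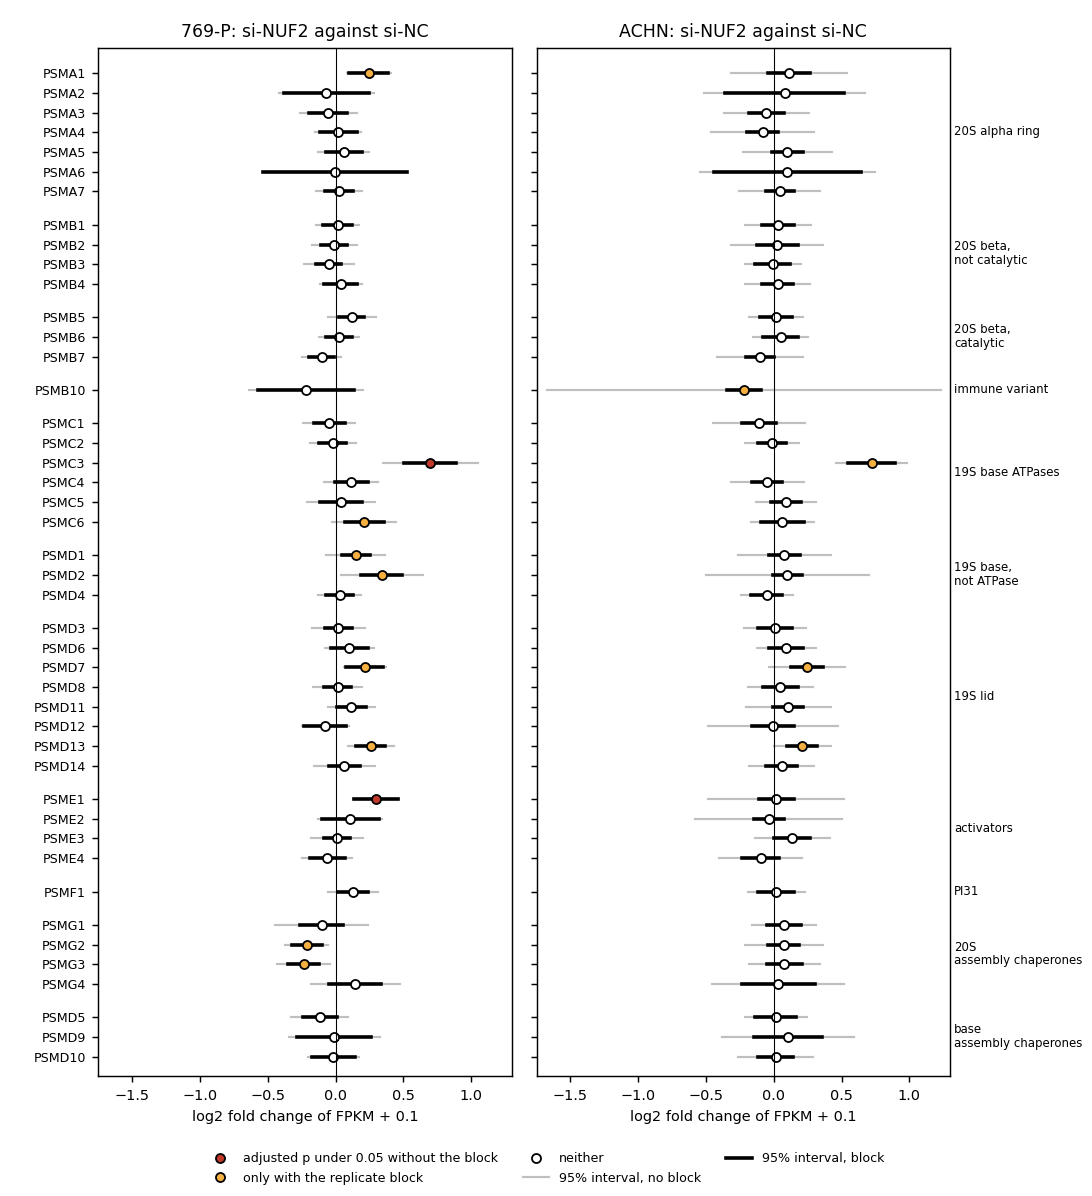
Log2 fold change of FPKM + 0.1, si-NUF2 against si-NC, for the 44 tested members in 769-P (left) and ACHN cells (right), grouped by role. Circles are estimates from 3 libraries against 3, grey lines are 95% intervals without and black lines with the replicate block, and colour marks an adjusted p under 0.05. PSMC3 stands apart in both lines, at 0.70 (769-P) and 0.72 (ACHN), and most other members lie close to 0.

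PSMC3 encodes 1 of the 6 ATPases of the ring at the base of the 19S cap. Its level in 769-P libraries was 59.5, 47.9 and 40.4 FPKM in si-NC replicates 1 to 3 and 89.3, 72.9 and 75.8 in si-NUF2 replicates 1 to 3. The ACHN libraries had 25.4, 28.6 and 27.8 with si-NC and 43.3, 42.0 and 50.2 with si-NUF2. No si-NUF2 library of either line overlapped its si-NC libraries. The mean with si-NUF2 was 161% of that with si-NC in the 769-P libraries and 165% in those of ACHN.

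The log2 fold change of PSMC3 was 0.70 (SE 0.149) in 769-P cells, with an adjusted p of 0.0328 without the block and 0.00707 with it. The ACHN estimate was 0.72 (SE 0.108), with an adjusted p of 0.166 without the block and 0.0133 with it. The exact permutation test gave 0.1 in each line, the smallest two-sided p that 3 libraries against 3 allow. Each of the 6 pairs was higher with si-NUF2, by 0.58, 0.60 and 0.91 for 769-P and 0.77, 0.55 and 0.85 for ACHN. In 769-P cells the call without the block was lost when any library other than si-NC replicate 1 was left out (adjusted p 0.0627 to 0.0977), the fold change then lying between 0.56 and 0.76, and also without a filter (adjusted p 0.087). In ACHN cells the call with the block was lost without number 3 of both groups (adjusted p 0.0696), where 0 of 14279 genes were called.

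The other 5 ATPases were closer to 0. Their log2 fold changes ran from PSMC1 at -0.05 to PSMC6 at 0.21 in 769-P cells. In ACHN cells they ran from PSMC1 at -0.11 to PSMC5 at 0.09. None of the 5 passed without the block. PSMC6 passed with it in 769-P cells (adjusted p 0.0473), from 5.82, 4.99 and 5.85 FPKM with si-NC to 6.98, 5.91 and 6.42 with si-NUF2, and in ACHN cells it was 0.06 (adjusted p 0.528 with the block). PSMC1 was at 11.9, 10.6 and 10.9 FPKM in 769-P si-NC and at 11.5, 10.3 and 10.6 in si-NUF2 libraries, and at 7.77, 8.07 and 9.74 against 7.31, 7.32 and 9.06 in ACHN cells. Its groups overlapped in both lines, and 82.1% of its transcript lies opposite another gene, NRDE2, so that its count may depend on the strand setting.

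Of the 8 lid genes, PSMD7 and PSMD13 were called higher with the block in both lines, at smaller fold changes than PSMC3. Over all genes 13.6% were called higher with the block in 769-P and 7.14% in ACHN cells. PSMD7 encodes the partner of the deubiquitinating subunit PSMD14, and PSMD13 a scaffold chain of the lid. PSMD13 was at 29.96, 27.9 and 28.9 FPKM in 769-P si-NC and at 36.9, 32.5 and 34.6 in si-NUF2 libraries. With ACHN cells it was at 16.5, 16.1 and 17.4 with si-NC and at 19.6, 18.3 and 20.02 with si-NUF2. The groups did not overlap in either line. Its log2 fold change was 0.26 (SE 0.072, adjusted p 0.0645 without and 0.014 with the block) in 769-P cells. For ACHN it was 0.21 (SE 0.087, adjusted p 0.616 without and 0.044 with the block).

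PSMD7 was at 22.8, 22.4 and 24.7 FPKM in 769-P si-NC and at 27.3, 27.2 and 26.7 in si-NUF2 libraries. In ACHN cells the values were 21.4, 19.2 and 24.0 with si-NC and 25.5, 23.7 and 27.2 with si-NUF2. The groups were separate in 769-P and overlapped in ACHN cells, where each replicate number still rose, by 0.25, 0.30 and 0.18. The log2 fold change was 0.21 (SE 0.066, adjusted p 0.0873 without and 0.0388 with the block) in 769-P cells. For ACHN it was 0.25 (SE 0.116, adjusted p 0.675 without and 0.0369 with the block). In ACHN cells 1 member passed the fit with the block without number 1 of both groups, 1 without number 2, and 0 without number 3. Over all genes 508 of 14412, 1076 of 14358 and 0 of 14279 were called, beside 1843 of 15116 with all pairs. The calls of PSMD7, PSMD13 and PSMB10 were lost in each of these fits, in which the calls over all genes also fell. The other 6 lid genes, PSMD14 among them, lay between -0.08 and 0.12 in 769-P and between -0.01 and 0.11 in ACHN cells, and none passed either fit. Of the transcript of PSMD7, 50.4% lies opposite AC009120.2, so that its count may depend on the strand setting.

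**Figure D2:**
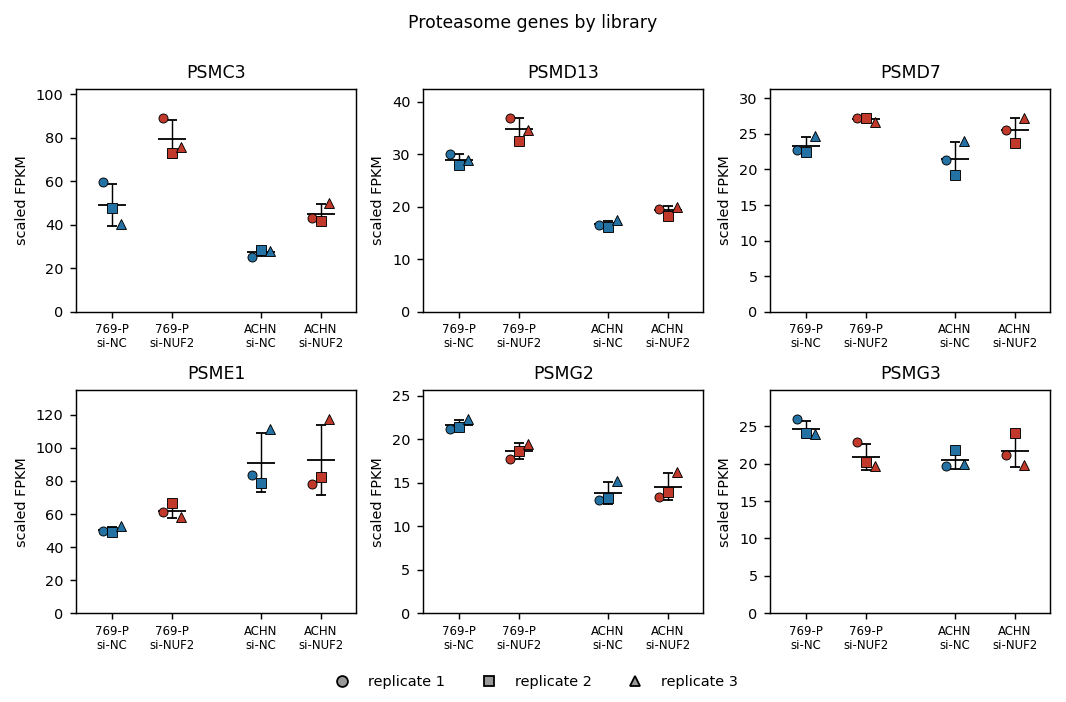
Scaled FPKM of 6 proteasome genes in each of the 12 libraries, with si-NC in blue and si-NUF2 in red, symbols for replicate numbers, and the mean with its SD (n = 3). PSMC3 and PSMD13 lie higher with si-NUF2 in both lines without overlap, while PSMD7, PSME1, PSMG2 and PSMG3 separate the groups in 769-P cells and overlap in ACHN cells.

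The promoters of the 3 genes called with the block in both lines are shown because these genes moved the same way in both. How many of all genes were called the same way in both lines was not counted. They are the RefSeq windows of GRCh38.p14 from 250 bases before to 50 bases after the start site, with matches to CCAAT and to CCGGAAG on either strand in capitals. Of the 46 members, 40 matched the RefSeq promoter table, and PSMA7, PSMB1, PSMB6, PSMB7, PSMD4 and PSMG3 did not. The windows are chr11:47426390-47426689 on the reverse strand for PSMC3, chr16:74296564-74296863 on the forward strand for PSMD7, and chr11:236726-237025 on the forward strand for PSMD13.
PSMC3: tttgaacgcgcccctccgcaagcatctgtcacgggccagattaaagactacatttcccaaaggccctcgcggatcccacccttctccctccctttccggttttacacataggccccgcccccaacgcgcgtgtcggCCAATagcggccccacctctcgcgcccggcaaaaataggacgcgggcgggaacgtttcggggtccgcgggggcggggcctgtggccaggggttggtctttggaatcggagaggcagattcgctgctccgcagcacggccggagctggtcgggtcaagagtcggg
PSMD7: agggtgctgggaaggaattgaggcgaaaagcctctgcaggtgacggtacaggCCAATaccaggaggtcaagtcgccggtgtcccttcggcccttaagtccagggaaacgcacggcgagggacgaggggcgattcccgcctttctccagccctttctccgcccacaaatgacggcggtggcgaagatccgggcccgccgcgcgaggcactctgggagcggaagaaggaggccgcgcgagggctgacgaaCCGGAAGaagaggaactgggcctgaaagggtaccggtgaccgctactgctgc
PSMD13: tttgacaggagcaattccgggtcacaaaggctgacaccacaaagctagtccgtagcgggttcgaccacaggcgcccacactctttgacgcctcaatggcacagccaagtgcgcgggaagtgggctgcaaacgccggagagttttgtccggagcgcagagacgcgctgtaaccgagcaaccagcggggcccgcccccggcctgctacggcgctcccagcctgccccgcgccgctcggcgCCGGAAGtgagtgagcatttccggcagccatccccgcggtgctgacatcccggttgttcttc

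CCAAT, the letters of the CCAAT box, stood 114 bases before the start of PSMC3 and 198 bases before that of PSMD7. CCGGAAG, the core bound by ETS factors, began 2 bases before the start of PSMD7 and 12 bases before that of PSMD13. None of these matches overlapped another. CCAAT was in 19 of the 40 member promoters (47.5%) and in 39.7% of the 27305 genes of the table. CCGGAAG was in 15 of the 40 (37.5%) and in 12.2% of all genes. TGACNNNGC, the core of the antioxidant response element that NFE2L1 also binds, was in 14 of the 40 (35.0%) and in 16.1% of all genes, and in none of the 3 windows printed here. A match describes the letters of a window only.

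Of the 3 base chains without ATPase activity, PSMD1 and PSMD2 rose in 769-P cells with the block, and none passed in ACHN cells. PSMD2 and PSMD1 are the large scaffolds that receive ubiquitin receptors and ubiquitin-like domains. PSMD2 was at 119, 93.6 and 95.9 FPKM in 769-P si-NC and at 144, 112 and 135 in si-NUF2 libraries, and these groups overlapped. Its log2 fold change of 0.34 (SE 0.128) had an adjusted p of 0.144 without and 0.0164 with the block. PSMD1 was at 31.3, 27.1 and 27.8 against 35.2, 29.6 and 31.0, a log2 fold change of 0.15 (adjusted p 0.343 without and 0.048 with the block). In ACHN cells PSMD2 was at 76.8, 52.3 and 85.3 with si-NC and at 84.5, 56.7 and 88.1 with si-NUF2, a log2 fold change of 0.10 that passed neither fit. The ubiquitin receptor PSMD4 was at 0.03 (769-P) and -0.05 (ACHN).

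None of the constitutive catalytic chains of the 20S core, PSMB5, PSMB6 and PSMB7, passed either fit. The catalytic chain PSMB5, the chymotrypsin-like site that proteasome inhibitors block, was at 67.0, 59.7 and 66.5 FPKM in 769-P si-NC and at 72.5, 65.5 and 71.8 in si-NUF2 libraries. The ACHN values were 72.6, 67.8 and 65.9 against 69.8, 68.8 and 69.9. The log2 fold change was 0.12 (95% interval -0.06 to 0.30) and 0.02 (-0.18 to 0.22), and the groups overlapped in both lines.

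PSMB6, the caspase-like site, was at 85.0, 83.6 and 91.4 FPKM in 769-P si-NC and at 87.5, 86.0 and 91.0 in si-NUF2 libraries, a log2 fold change of 0.03 (95% interval -0.12 to 0.17). ACHN libraries had 94.2, 95.7 and 90.7 against 100.4, 91.9 and 98.5, a log2 fold change of 0.05 (-0.15 to 0.26). PSMB7, the trypsin-like site, was at 129.9, 122 and 128 in 769-P si-NC and at 122.8, 115 and 115 in si-NUF2 libraries, and at 99.9, 79.0 and 95.6 against 91.2, 76.0 and 87.9 in ACHN cells. It was lower with si-NUF2 in all 6 pairs, at -0.10 in each line, and passed neither fit in either line (adjusted p 0.0994 in 769-P and 0.155 in ACHN cells with the block). The 4 beta chains without a catalytic site lay between -0.05 and 0.04 in 769-P and between -0.01 and 0.03 in ACHN cells.

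Of the 7 alpha ring genes, only PSMA1 passed any fit. It was at 7.44, 7.12 and 7.07 FPKM in 769-P si-NC and at 8.32, 8.57 and 8.84 in si-NUF2 libraries, and the groups were separate. Its log2 fold change of 0.25 (SE 0.069) had an adjusted p of 0.0671 without and 0.0325 with the block. For ACHN it was 0.11 (adjusted p 0.26 with the block). The other 6 lay between -0.07 and 0.06 in 769-P and between -0.08 and 0.10 in ACHN cells. Of the transcript of PSMA1, 59.5% is shared with AC018523.2 on the same strand, so that its count may depend on how reads in shared exons were treated.

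The 4 chaperones of 20S assembly were the only group whose called members fell in 769-P cells. PSMG2, which pairs with PSMG1 to put the alpha ring together, was at 21.1, 21.4 and 22.3 FPKM in 769-P si-NC and at 17.8, 18.7 and 19.5 in si-NUF2 libraries. PSMG3, which pairs with PSMG4, was at 25.9, 24.1 and 23.9 against 22.9, 20.2 and 19.6. Both genes separated the groups. The log2 fold change of PSMG2 was -0.21 (SE 0.067, adjusted p 0.0957 without and 0.025 with the block). That of PSMG3 was -0.24 (SE 0.082, adjusted p 0.118 without and 0.0213 with the block).

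In ACHN cells PSMG2 was at 13.0, 13.2 and 15.2 FPKM with si-NC and at 13.4, 13.9 and 16.3 with si-NUF2, and PSMG3 was at 19.6, 21.8 and 19.9 against 21.1, 24.0 and 19.8. The groups overlapped for both genes, and their log2 fold changes were 0.07 and 0.08. The difference between the lines, as the interaction of siRNA and line, passed for 0 of the 44 members without the block (limma; 1 at an unadjusted p under 0.05, beside 4.75% of all genes), where 0.0% of the 12930 genes tested were called. With the block it passed for 2 members, where 3.27% of all genes were called (1.49% higher and 1.78% lower). These were PSMG2 (ACHN effect minus 769-P effect 0.29, SE 0.055, adjusted p 0.0421) and PSMG3 (0.32, SE 0.065, adjusted p 0.0488). Their partners did not pass in either line, PSMG1 at -0.10 and 0.07 and PSMG4 at 0.14 and 0.03 for 769-P and ACHN. Of the transcript of PSMG2, 17.3% lies opposite other genes, of which CEP76 overlaps the most exon bases of PSMG2. The 3 chaperones of the base, PSMD5, PSMD9 and PSMD10, lay between -0.12 and -0.01 in 769-P and between 0.01 and 0.10 in ACHN cells.

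Of the interferon-inducible members, PSME1 rose in 769-P cells, PSMB10 fell in ACHN cells with the block, and PSME2 passed no fit. PSMB10 is the chain that replaces PSMB7 in the immunoproteasome, and PSME1 and PSME2 form the activator ring that interferon gamma raises. PSME1 was at 49.6, 48.9 and 52.5 FPKM in 769-P si-NC and at 61.1, 66.5 and 58.3 in si-NUF2 libraries, and the groups were separate. Its log2 fold change was 0.30 (SE 0.072), with an adjusted p of 0.0456 without and 0.0287 with the block. The call without the block was lost when any 1 of the 6 libraries was left out (adjusted p 0.0808 to 0.14), and that with the block when number 1 (0.0771) or number 2 (0.123) was left out of both groups.

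In ACHN cells PSME1 was at 83.4, 78.6 and 111 FPKM with si-NC and at 78.3, 82.5 and 117 with si-NUF2, a log2 fold change of 0.02. PSME2 was at 18.5, 16.7 and 17.6 in 769-P si-NC and at 20.1, 20.5 and 16.5 in si-NUF2 libraries, and at 22.3, 25.4 and 34.4 against 22.3, 23.9 and 33.7 in ACHN cells. Its groups overlapped in both lines, and its log2 fold changes were 0.11 and -0.04. The difference between the lines was not called for PSME1 (-0.28, SE 0.089, adjusted p 0.135 with the block).

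PSMB10 was at 5.395, 6.28 and 9.04 FPKM in 769-P si-NC and at 5.59, 5.91 and 5.86 in si-NUF2 libraries. The ACHN libraries were at 11.6, 8.39 and 29.1 with si-NC and at 10.3, 7.25 and 23.9 with si-NUF2. In ACHN cells replicate 3 was highest in both groups, and each replicate number was lower with si-NUF2, by 0.17, 0.21 and 0.28 on the log2 scale. The log2 fold change of -0.22 had an SE of 0.598 without the block (adjusted p 0.991) and of 0.049 with it (adjusted p 0.0495). Without the block and with 1 library left out it ran from -0.71 (without si-NUF2 replicate 3) to 0.30 (without si-NC replicate 3), changing sign also without si-NUF2 replicate 2 (0.15), and with the block and 1 number left out of both groups it ran from -0.24 to -0.19 (adjusted p 0.0986 to 0.201). The 769-P estimate was -0.22 as well (adjusted p 0.483 without and 0.291 with the block). Of the transcript of PSMB10, 45.3% is shared with AC040162.1 on the same strand.

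The promoters of these 3 genes are shown because interferon is known to raise all 3 genes. Capitals mark the core repeat of interferon response elements (GAAA, then 2 bases of any kind, then GAAA) on either strand. The windows, again from RefSeq on GRCh38.p14, are chr16:67936801-67937100 on the reverse strand for PSMB10, chr14:24135944-24136243 on the forward strand for PSME1 and chr14:24146561-24146860 on the reverse strand for PSME2.
PSMB10: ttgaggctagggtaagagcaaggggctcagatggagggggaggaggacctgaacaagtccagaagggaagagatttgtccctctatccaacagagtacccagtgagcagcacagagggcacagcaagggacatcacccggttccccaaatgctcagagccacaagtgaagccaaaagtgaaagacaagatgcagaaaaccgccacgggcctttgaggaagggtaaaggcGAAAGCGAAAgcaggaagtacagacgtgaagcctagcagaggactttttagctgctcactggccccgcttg
PSME1: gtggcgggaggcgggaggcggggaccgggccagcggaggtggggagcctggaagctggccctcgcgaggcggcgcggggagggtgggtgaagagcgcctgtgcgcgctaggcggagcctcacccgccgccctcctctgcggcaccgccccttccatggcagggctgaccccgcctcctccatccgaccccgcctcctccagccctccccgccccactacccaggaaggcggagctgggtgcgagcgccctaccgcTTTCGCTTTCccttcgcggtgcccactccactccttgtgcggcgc
PSME2: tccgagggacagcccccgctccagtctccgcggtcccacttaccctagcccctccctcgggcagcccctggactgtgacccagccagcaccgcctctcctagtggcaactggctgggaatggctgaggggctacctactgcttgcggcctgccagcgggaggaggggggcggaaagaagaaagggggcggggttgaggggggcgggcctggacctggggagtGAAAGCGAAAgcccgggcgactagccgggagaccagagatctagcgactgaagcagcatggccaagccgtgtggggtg

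Each of the 3 windows held 1 match, and in all 3 the bases in the middle were GC. The match began 21 bases before the start of PSMB10 and 28 bases before that of PSME2, and in PSME1 it stood on the opposite strand from base 6 after the start. The repeat was in 6 of the 40 member promoters (15%), those of PSMA4, PSMB4 and PSMG4 besides these, and in 4.38% of all genes. The last 3 lay between 0.02 and 0.14 in 769-P and between -0.08 and 0.03 in ACHN cells, and none passed either fit.

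The chains PSMB8 and PSMB9, which the rule leaves out, share the interferon control of PSMB10. PSMB8 was at 24.0, 25.5 and 26.5 FPKM in 769-P si-NC and at 38.2, 42.3 and 34.7 in si-NUF2 libraries, a log2 fold change of 0.59 (SE 0.089, adjusted p 0.0131). ACHN cells had it at 34.0, 38.1 and 51.7 against 41.9, 38.9 and 59.6, and PSMB9 was at 24.0, 26.4 and 39.6 against 22.1, 23.8 and 39.6. Both were highest in ACHN replicate 3 of each group, as were 21 of the 44 tested members, PSMB10, PSME1 and PSME2 among them, and 19.3% of all genes tested. In 769-P cells replicate 1 was highest in both groups for 26 of the 44 members and for 24.1% of all genes tested. PSMB9 was at 4.20, 4.17 and 5.36 in 769-P si-NC and at 5.51, 6.86 and 5.10 in si-NUF2 libraries, where the groups overlapped.

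**Figure D3:**
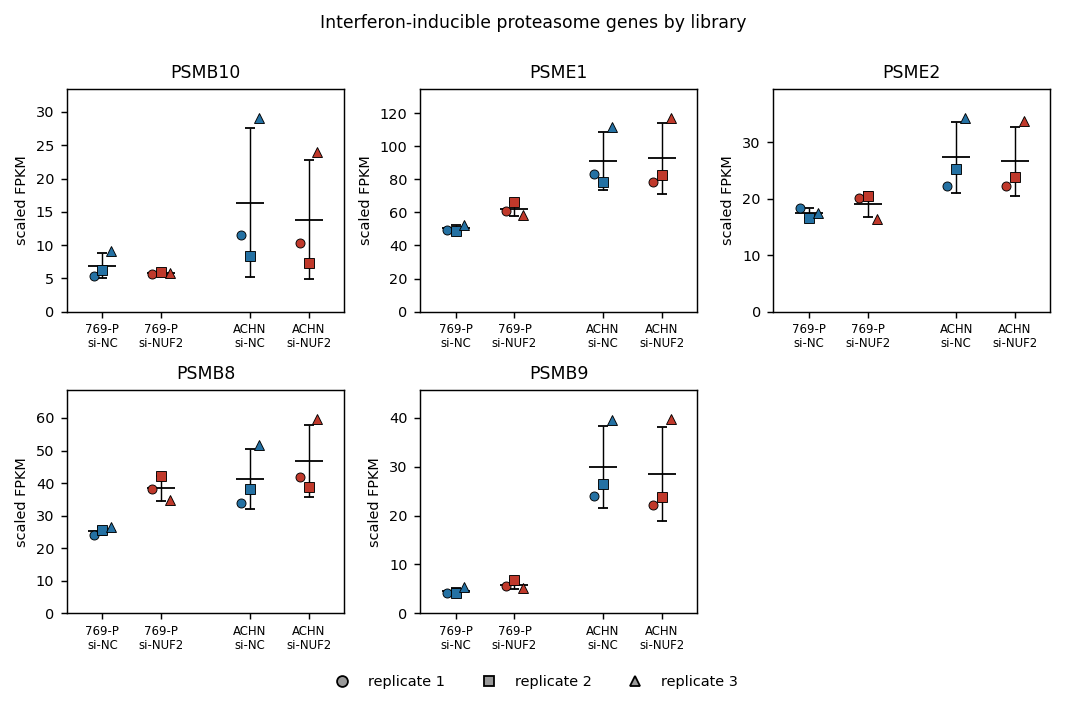
Scaled FPKM of PSMB10, PSME1, PSME2 and the chains PSMB8 and PSMB9 in each of the 12 libraries, with si-NC in blue and si-NUF2 in red, symbols for replicate numbers, and the mean with its SD (n = 3). In ACHN cells replicate 3 is the highest library of both groups for all 5 genes, as for 21 of the 44 tested members, and in 769-P cells PSME1 and PSMB8 are higher in each si-NUF2 library.

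For most tested members the range between replicates was larger than the response to si-NUF2. The median SD within groups was 0.089 on the log2 scale for 769-P and 0.132 for ACHN. The range between replicate numbers was larger than the absolute log2 fold change for 35 of the 44 members in 769-P and for 40 of the 44 in ACHN cells. A gene without a response would tend to do the same, since a range over 3 numbers is set against a difference of 2 means. The share over all genes was not counted. Among ACHN libraries it was widest for PSMB10 (1.75), PSMD2 (0.67), PSME2 (0.61) and PSMD12 (0.54), each of them highest at number 3. What the replicate numbers stand for was not tested.

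Of the remaining activators, the nuclear PSME3 was at 0.01 (769-P) and 0.14 (ACHN), and PSME4, which caps the core in place of the 19S particle, was at -0.06 and -0.10. PSMF1, a regulator of the core, was at 0.13 and 0.02. None of these 3 passed either fit.

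Other genes of the pathway were taken from a list of 35 that had values in both lines. They comprised 14 proteasome factors with other names, 5 shuttle factors, 8 genes of the NFE2L1 route, 6 genes for ubiquitin and its activating enzymes, and PSMB8 and PSMB9. In 769-P cells 4 of the 35 rose and 0 fell without the block, and 4 rose and 3 fell with it, with a median of -0.048, where 9.98% and 27.5% of all genes were called. In ACHN cells 0 of the 35 were called without the block, and 2 rose and 1 fell with it, with a median of -0.003, where 0.0% and 12.2% of all genes were called.

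PITHD1, a protein with a PITH domain, was at 8.79, 8.26 and 7.99 FPKM with si-NC against 12.9, 10.7 and 13.3 with si-NUF2 in 769-P cells, a log2 fold change of 0.55 (adjusted p 0.0216), and in ACHN cells it was 0.57 (adjusted p 0.224 without and 0.0144 with the block).

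NFE2L1 was at 27.8, 31.2 and 26.3 FPKM in 769-P si-NC and at 39.2, 39.1 and 39.4 in si-NUF2 libraries, a log2 fold change of 0.47 (adjusted p 0.017). ACHN libraries were at 83.8, 52.0 and 107 against 75.2, 59.8 and 121, a log2 fold change of 0.08 that passed neither fit. DDI2, the protease that cuts NFE2L1 into its active form, had a log2 fold change of -0.34 (adjusted p 0.106 without and 0.0356 with the block) in 769-P cells and of -0.31 (adjusted p 0.0635 with the block) in ACHN cells. SEL1L and ZFAND5 also fell in 769-P cells with the block (adjusted p 0.0256 and 0.043), by 0.26 and 0.18 on the log2 scale. The ubiquitin gene UBB was called in ACHN cells with the block, at -0.31 (adjusted p 0.0209). RNA levels of the pathway do not measure proteasome activity, which was not assayed here.

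Without the knockdown, more proteasome genes were higher in 769-P than in ACHN cells. In the 6 si-NC libraries, scaled together, 24 of the 44 members were higher in 769-P cells (32.2% of the 15376 genes tested were) and 2 were higher in ACHN cells (29.3% of all genes were). In all, 61.5% of genes were called. The median log2 difference of the members, 769-P minus ACHN, was 0.32, beside 0.04 over all genes. The si-NC libraries are the same ones that enter the siRNA comparisons, and line and culture medium cannot be told apart.

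The members higher in 769-P cells belonged to both the core and the cap. They included 4 of 7 alpha ring genes, 4 of 7 beta ring genes, 3 of 6 ATPases, 4 of 8 lid genes and all 4 chaperones of 20S assembly. PSMB2 had the largest difference, at 0.88 (SE 0.106, adjusted p 0.000455), from 30.2 ± 3.39 FPKM (SD, n = 3) in ACHN to 54.1 ± 2.91 in 769-P cells. PSMA4 followed at 0.87 (SE 0.123, adjusted p 0.000939), PSMC3 at 0.87 (SE 0.146, adjusted p 0.00205) and PSMD13 at 0.83 (SE 0.081, adjusted p 0.000179). PSMC3 was at 49.3 ± 9.65 FPKM in 769-P si-NC and at 27.3 ± 1.70 in ACHN si-NC libraries, each line scaled on its own for these levels.

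Of the members, only the activator genes PSME1 and PSME2 were called higher in ACHN cells. PSME1 differed by -0.80 (SE 0.140, adjusted p 0.00245) and PSME2 by -0.58 (SE 0.162, adjusted p 0.0185). PSMB10 was at -1.03, the largest difference of any member in size, and was not called (SE 0.452, adjusted p 0.0881), with ACHN replicate 3 at 29.1 FPKM and the other two at 11.6 and 8.39. PSMB8 and PSMB9 were also higher in ACHN cells, at -0.64 (adjusted p 0.0112) and -2.63 (adjusted p 7.41e-05).

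**Figure D4:**
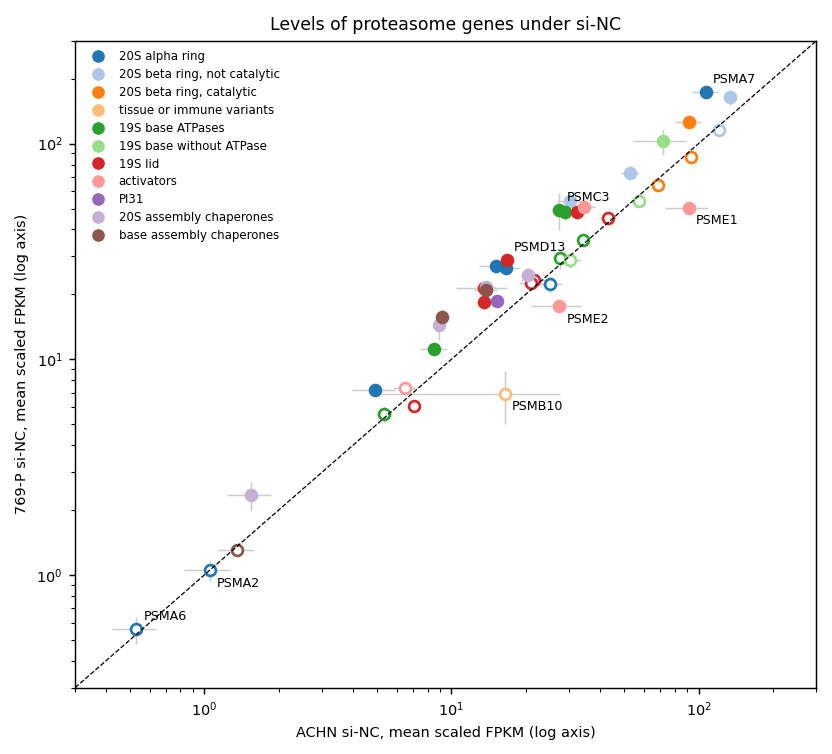
Mean scaled FPKM of 44 members under si-NC in ACHN (x axis) and 769-P cells (y axis), both on log axes, with the SD of 3 libraries as grey lines, colours for roles, and the dashed line where the lines are equal. Filled circles had an adjusted p under 0.05, 24 of them above the dashed line, and PSME1 and PSME2 are the filled circles below it.

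The FPKM of the members spanned a wide range in each line. It divides by the length of all annotated exons, which was 10418 bases for PSMG4, 7482 for PSMC6 and 1750 for PSMA7. The transcripts with the longest coding sequence had 629, 2188 and 996 bases. The part of these lengths in the order of levels was not tested. In 769-P si-NC libraries the highest were PSMA7 at 173 ± 12.3 FPKM (SD, n = 3) and PSMB3 at 164 ± 12.7, which did not differ beyond their spread, followed by PSMB7 at 126 ± 4.31 and PSMB4 at 116 ± 7.21. In ACHN cells the highest were PSMB3 at 134 ± 4.56, PSMB4 at 121 ± 5.89 and PSMA7 at 107 ± 12.8, and PSMB4 and PSMA7 overlapped within 1 SD. At the low end of the members with tested values, PSMA6 was at 0.559 ± 0.0792 and 0.529 ± 0.107 FPKM and PSMA2 at 1.05 ± 0.113 and 1.05 ± 0.220 in 769-P and ACHN cells.

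PSMA6 and PSMA2 encode alpha ring chains of the 20S core and were the lowest of the tested members in both lines. PSMA6 had 91 to 154 reads in the 12 libraries and PSMA2 had 150 to 278. Of the PSMA6 transcript with the longest coding sequence in GENCODE release 29, 80.3% is shared on the same strand with AL121594.1, and of that of PSMA2, 52.5% is shared with another gene on the same strand. The exons of PSMA6 that enter its FPKM add up to 6506 bases, beside 879 bases for that transcript. PSMD9, with 43.8% of its transcript shared on the same strand, was at 1.31 ± 0.0715 and 1.36 ± 0.225 FPKM. How the counting treated reads in shared exons is not given in the sources used here, and its part in these levels was not tested. The transcript of PSMC3, at chr11:47418769-47426473 on the reverse strand, shares no exon base with another gene, and nor do those of PSMD2 and PSMD13. Over all annotated exons, which enter the FPKM, PSMC3 and PSMD2 again share none. Of the exon bases of PSMD13, 6.6% lie in SIRT3 on the opposite strand.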

How the data were processed

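RNA of 12 libraries was sequenced on an Illumina NovaSeq and filtered with fastp. The submitters' processing notes name HISAT2 2.0.5, featureCounts 1.5.0-p3 and hg38, while the annotation release, strand setting and handling of shared reads are not given in the sources used here. The authors deposited 1 FPKM value per gene and library. Whole multiples of the value of 1 read, from exon lengths of GENCODE release 29, were found for 94.8% of values above 0 (tolerance 0.02 reads, or a relative 1e-06 for high counts), which gave the depth and the reads for limma-voom (1766 of 13299 genes called for 769-P and 0 of 14207 for ACHN).

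FPKM of each line were scaled by trimmed log ratios (30% of ratios and 5% of levels trimmed). Genes that reached 0.5 scaled FPKM in 3 or more libraries were fitted on log2(FPKM + 0.1) with limma 3.58.1 (lmFit and eBayes with trend) in R 4.3.3, each line alone. Benjamini-Hochberg adjustment ran over all genes tested. The interaction of siRNA and line was fitted on all 12 libraries, and the lines were compared over the 6 si-NC libraries. Single genes had exact two-sided permutation tests. Fits were also run on simulated data, whose changes exceeded every siRNA effect seen in a member. Effects of the size reported for members were not simulated. Figures were drawn in Python 3.11.15 with pandas 2.3.3 and matplotlib 3.10.9. At these depths the spread between replicates limits precision for most members, and counting error for those near the filter, so intervals of the low genes are wide.

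Replicate numbers come from the sample titles. Same-numbered libraries deviated together from their group means (correlations of 0.359, 0.271 and 0.19 in 769-P and of 0.648, 0.735 and 0.46 in ACHN cells), each over 0.1, so the numbers were taken to pair the libraries and the fit with the number as a block is given beside the fit without it.

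The members and lists were chosen with earlier results of these data known. Values in each library are given for members called without the block or in the interaction with it, for the 3 lowest and 3 highest fold changes in each line, for PSMB5, PSMB6 and PSMB7, and for PSMB10, PSME1 and PSME2. PSMA1, PSMC6 and PSMD1 were added after their values were seen, since they were called with the block. Alternatives were median-ratio scaling, no scaling, pseudocounts of 1 and 0.01, no filter, at least 1 FPKM in every library, the block, 1 fit of all 12 libraries, limma-voom and each library left out. Some genes of the marker and pathway lists are not reported here by name.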

Additional observations from a re-analysis of the deposited data

Results flagged for a closer look

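The interaction of siRNA and line with the replicate block called 2 of the 44 members, where 3.27% of the 12930 genes tested were called. Both members are chaperones of 20S assembly, and their number is close to the share over all genes. For PSMG2 the ACHN effect exceeded the 769-P effect by 0.289 on the log2 scale: each pair fell in 769-P cells (by 0.25, 0.19 and 0.19) and rose in ACHN cells (0.05, 0.07 and 0.10). For PSMG3 the ACHN effect exceeded it by 0.32, with falls of 0.17, 0.25 and 0.28 in 769-P cells and pairs at 0.10, 0.14 and -0.00 in ACHN cells. The adjusted p with the block was 0.0421 for PSMG2 and 0.0488 for PSMG3 (limma, Benjamini-Hochberg), and that fit was not repeated with a number left out. Without the block neither difference passed, and 0.0% of all genes did.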

How the results depend on the processing

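Without the replicate block 2 members were called in 769-P, 0 in ACHN cells and 0 in the interaction (9.98%, 0.0% and 0.0% of all genes). With the block, which the pairing of numbers allows, these counts were 10, 4 and 2 (27.5%, 12.2% and 3.27% of all genes). In 769-P cells the count was 1 with FPKM as deposited (1430 of 14159 genes) and 0 without a filter (635 of 31645 genes). It was 1 in the fit of all 12 libraries (4.23% of genes) and 10 with limma-voom and the block (36.5%). With 1 library left out it was 0 to 1, at 0 without any 1 of the 5 libraries other than si-NC replicate 1. Over all genes those fits called 357 to 1144. In ACHN cells it was 1 in the fit of all 12 libraries (1.03% of genes) and 4 with limma-voom and the block (23.2%). With any 1 library left out it was 0, as it was over all genes. With the block and 1 number left out of both groups, 2 to 8 members passed for 769-P (8 without number 3) and 0 to 1 for ACHN. Over all genes 1691 to 3034 were called in those fits of 769-P and 0 to 1076 in those of ACHN. Limma-voom with the block and leaving out numbers were chosen after seeing the data. The cause of these changes was not tested, beyond that fewer libraries or more genes tested enter some of the fits. Median-ratio scaling, either pseudocount and the stricter filter left each count without the block as it was. They were not combined with the block. The comparison of the lines gave 26 calls, 24 without a filter, and 20 to 26 with 1 library left out. Over all genes these fits called 9461 of 15376, 11234 of 33760, and 7287 to 8129. The replicate block was not used there, since numbers were taken to pair libraries within a line. Over the alternatives the log2 fold change of PSMC3 stayed between 0.56 and 0.84 (769-P) and between 0.64 and 0.80 (ACHN). The ACHN fold change of PSMB10, called only with the block, ran from -0.71 to 0.30 over the alternatives and changed sign without si-NUF2 replicate 2 or si-NC replicate 3. Depth limits PSMA8 and PSMB11, whose reads cannot show a change.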
